A study of Rattus norvegicus with 12 samples.

Results

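The Bcl2 family of apoptosis regulators was followed through 10 genes, *Bcl2*, *Bcl2l1*, *Mcl1*, *Bax*, *Bak1*, *Bbc3*, *Pmaip1*, *Bcl2l11*, *Bid* and *Bad*. They were chosen by name, through the RefSeq accessions of the array probes, and are 10 of the 16581 named genes on the arrays. Each of the 10 had a tested probe, as had 10741 named genes in all. The cells were L6, a rat skeletal muscle line whose myoblasts fuse into myotubes. Total RNA was measured on 12 Agilent arrays of 1 colour, 3 for each of 4 groups, and the question put to these genes was how cells exposed to the compounds compare with the control in a view on possible loss of cells. The number of cells itself was not analysed here.

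The control group received DMSO alone. The other groups received GR24, pinosylvin or resveratrol at 60 µM in DMSO, so the solvent was shared by all 4 groups, as were the line, the 6 days of differentiation given in the labels (the methods of the study give another number) and the 24 h of treatment. GR24 is a synthetic analogue of strigolactones, a class of plant hormones. Pinosylvin and resveratrol are plant stilbenes that differ by a hydroxyl group on the second ring, which resveratrol carries and pinosylvin lacks. Only a single cell line was used.

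Proteins of the Bcl2 family control whether the outer membrane of mitochondria becomes permeable, the step that lets cytochrome c out and starts the caspase cascade. Anti-apoptotic members hold the pore-forming effectors Bax and Bak1 in check, and members with only the BH3 domain bind the anti-apoptotic proteins or activate the effectors. Much of this control acts on the proteins, through cleavage of Bid, phosphorylation of Bad and breakdown of Mcl1, whereas the arrays measured mRNA.

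Levels are on a log2 scale with the 75th percentile of each array set to 0, so 0 is the signal of a probe at that percentile, and levels of different probes are not set against each other. Between 58.0% and 64.3% of the 58717 spots of an array were well above background, and with 3 arrays per group the p-values measure the spread between these arrays. The 10 genes had 17 probes, of which 14 were tested, and the 3 probes left untested were dim probes of *Bcl2l1*. Where a gene had several probes, its brightest tested probe stands for it. Changes are log2 fold changes from 1 limma fit over 24279 tested probes, with Benjamini-Hochberg adjusted p-values and a threshold of 0.05.

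With GR24, 6 of the 10 genes rose and 0 fell, and in all tested probes 57.1% passed the threshold in either direction and 31.5% rose. *Pmaip1* is among the 6, though it was tested only through its GR24 and resveratrol arrays, a filter that favours an increase over control. The share of the family past the threshold was thus near the background share, and GR24 moved a large part of all probes. The median log2 fold change of the family was 0.31, beside 0.027 over all tested probes. The 3 GR24 arrays lay above the 3 control arrays for 7 of the 10 genes, against 33.9% of the probes. In bulk RNA, fewer cells of a kind and less RNA per cell cannot be told apart.

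The scaling of the arrays changed some calls and left the direction of the median of the family. The percentile over probes was adopted after a first fit that took it over spots had been seen. With the percentile over spots the median of all probes moved to 0.13 for GR24 against control and from 0.024 to 0.14 for GR24 against resveratrol. With that scaling 7 of the 10 genes passed against control, *Bax* being added (adjusted p = 0.00568), 7 differed from pinosylvin and 4 from resveratrol, where the main fit gave 6, 5 and 3. Relative to the median of all probes, the median of the family against control was 0.29, and it was 0.18 to 0.36 over the 28 alternatives. Within slide 1, which held replicates 1 and 2 of every group, the median change of the family was 0.32, and within slide 2, which held replicate 3, it was 0.28. Because each slide held all groups in equal proportion, a block for slide left the fold changes as they were and altered only their errors.

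*Mcl1*, an anti-apoptotic member with a short-lived protein, had levels of 1.43, 1.44 and 1.22 in the control and 2.13, 2.19 and 1.97 with GR24. Levels were 1.39, 1.27 and 1.08 with pinosylvin and 1.21, 1.37 and 1.08 with resveratrol. The GR24 arrays stood above every array of the other groups, which overlapped among themselves. The increase with GR24 was 1.66-fold, or 0.74 (SE 0.11, adjusted p = 0.000193) in log2, with 0.73 within slide 1 and 0.75 within slide 2. Another probe of the same transcript rose further, by 1.21 (SE 0.065, adjusted p = 1.04e-07), so the direction was shared and the size was not. With pinosylvin and resveratrol the log2 fold changes were -0.12 (95% interval -0.36 to 0.13) and -0.14 (95% interval -0.39 to 0.10), neither past the threshold.

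*Bcl2*, the founding member, did not share this pattern. Its levels were -1.01, -0.81 and -1.21 in the control, -0.95, -1.11 and -0.94 with GR24, -0.72, -0.33 and -0.59 with pinosylvin and -0.56, -0.86 and -0.90 with resveratrol. The GR24 and control arrays overlapped, and the pinosylvin arrays lay above both. The log2 fold change with GR24 was 0.0065 (95% interval -0.29 to 0.31), and its sign differed between alternatives. With pinosylvin it was 0.46 (SE 0.14, adjusted p = 0.0410), a call that 7 single arrays decided. It was lost without control replicate 1 or 3, pinosylvin replicate 2 or 3, GR24 replicate 1 or 3, or resveratrol replicate 2, and also with quantile normalization, the deposited table, no filter, 6 arrays or slide 1 alone, with adjusted p of 0.0244 to 0.179 over all alternatives.

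*Bcl2l1*, the gene of Bcl-xL, passed the threshold in none of the 6 comparisons, with adjusted p from limma of 0.237 or more and 0 of 6 unadjusted p under 0.05. The GR24 arrays, at -3.02, -3.05 and -2.88, lay just above the control arrays, at -3.25, -3.14 and -3.08. The log2 fold change was 0.17 (95% interval -0.085 to 0.43). Pinosylvin replicate 3 was the lowest of the 12 arrays, at -3.40.

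**Figure D1:**
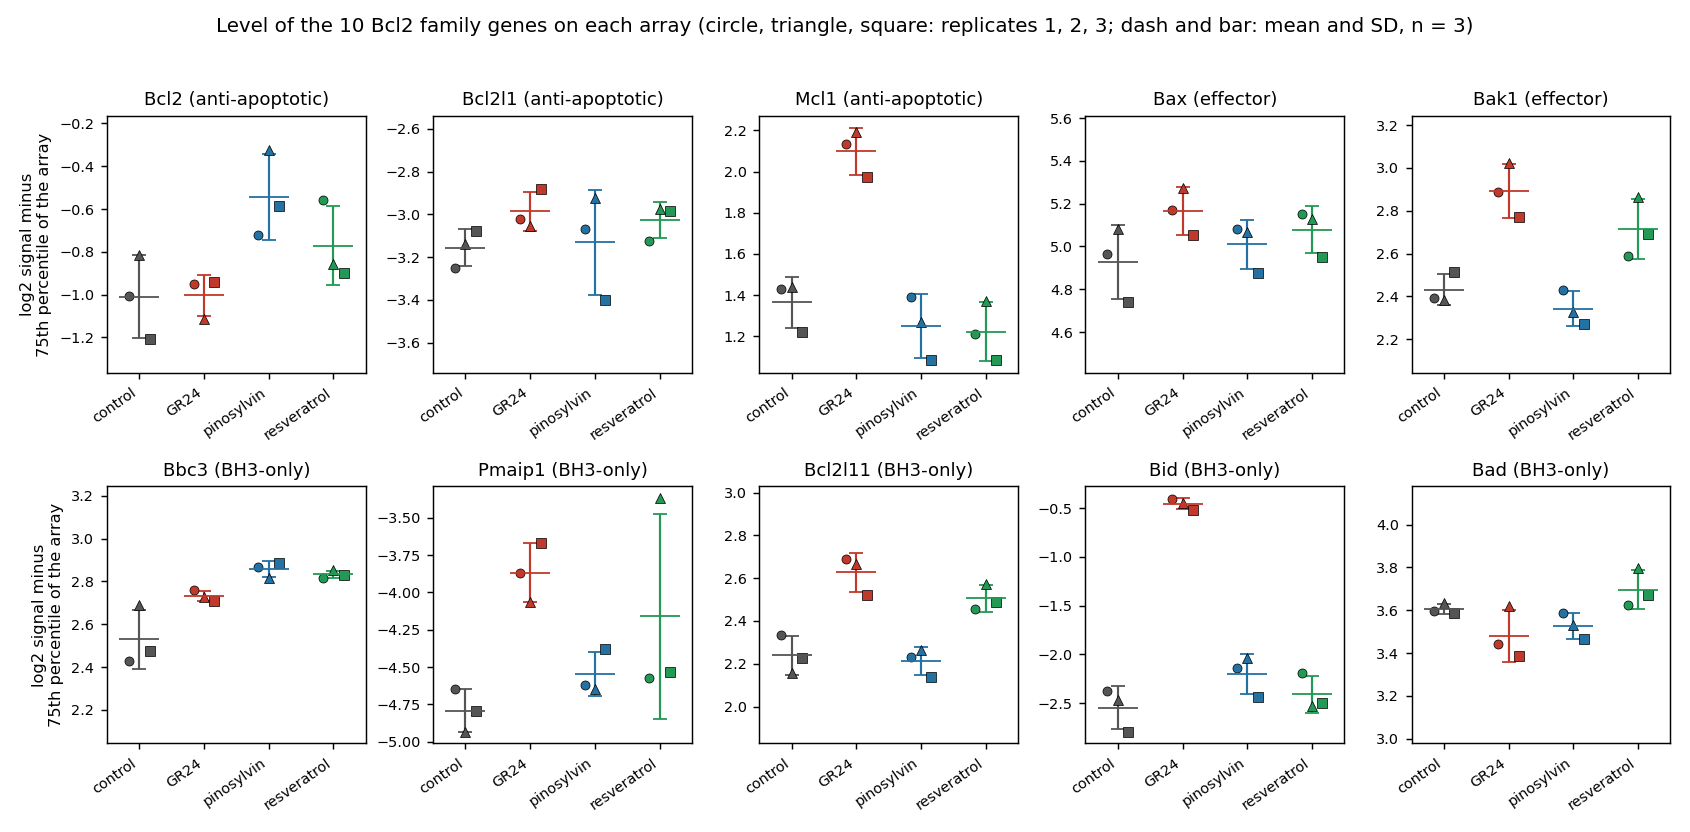
Levels of the 10 Bcl2 family genes on the 12 arrays, in log2 with the array's 75th percentile at 0 on the y axis of each panel, by group on the x axis. Symbols are replicates 1 to 3, dashes are means and bars are SD (n = 3). *Bid* and *Mcl1* stand apart with GR24, and resveratrol replicate 2 of *Pmaip1* lies at -3.37.

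*Bak1* encodes an effector that forms pores in the outer membrane. It measured 2.39, 2.38 and 2.51 in the control, 2.89, 3.02 and 2.77 with GR24, 2.43, 2.33 and 2.27 with pinosylvin and 2.59, 2.86 and 2.69 with resveratrol. GR24 and resveratrol arrays lay above the control arrays without overlap, and pinosylvin arrays overlapped with them. With GR24 it rose by 0.46 (SE 0.092, adjusted p = 0.00138), 0.57 within slide 1 and 0.26 within slide 2. With resveratrol it was 0.28 (SE 0.092, adjusted p = 0.0604), and the threshold was passed with the replicate number as a block (adjusted p = 0.0427, replicate block), with the slide as a block (0.0377), and under 2 further alternatives.

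*Bax*, the other effector, varied less between groups. The control arrays had 4.96, 5.08 and 4.74, the GR24 arrays 5.17, 5.28 and 5.05, and both stilbene groups lay between 4.88 and 5.15. The GR24 and control arrays overlapped, with GR24 replicate 3 below control replicate 2. The log2 fold change with GR24, 0.24 (SE 0.11, adjusted p = 0.0804), missed the threshold. With the replicate block it passed (adjusted p = 0.00307), as it did under 10 other alternatives, among them the fit without control replicate 2 (0.0375), and adjusted p was 0.00253 to 0.275 over all 28. The other *Bax* probe rose by 0.32 (SE 0.073, adjusted p = 0.00352), with no overlap between its GR24 and control arrays, so the probes differed in the call and not in the direction.

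*Bid*, whose protein links death receptors to mitochondria once caspase 8 has cut it, changed most among the 10 genes. Its level was -2.38, -2.47 and -2.79 in the control, -2.14, -2.03 and -2.43 with pinosylvin and -2.19, -2.53 and -2.50 with resveratrol. With GR24 it was -0.40, -0.45 and -0.52. The GR24 arrays were far above the other 9, which overlapped among themselves. The increase was 4.26-fold, or 2.09 (SE 0.14, adjusted p = 5.12e-07) in log2, and it was 2.00 within slide 1, 2.28 within slide 2 and 1.97 to 2.18 with each array left out in turn. Pinosylvin gave 0.34 (SE 0.14, adjusted p = 0.127), past the threshold only with the replicate block (adjusted p = 0.0290) or the slide as a block (0.0263). With resveratrol it was 0.14 (95% interval -0.17 to 0.45).

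*Bcl2l11*, the gene of Bim, had levels of 2.33, 2.16 and 2.23 in the control, 2.69, 2.67 and 2.52 with GR24, 2.23, 2.27 and 2.14 with pinosylvin and 2.46, 2.57 and 2.49 with resveratrol. GR24 and resveratrol arrays both lay above all control arrays, and pinosylvin arrays did not. It rose by 0.39 (SE 0.075, adjusted p = 0.00112) with GR24 and by 0.27 (SE 0.075, adjusted p = 0.0339) with resveratrol. The resveratrol call was lost without pinosylvin replicate 1, control replicate 2 or 3 or any 1 resveratrol array, with adjusted p up to 0.122 over all alternatives. The other *Bcl2l11* probe, of the same accession, showed another size. It rose from -3.77, -3.72 and -3.79 in the control to -2.38, -2.33 and -2.47 with GR24, an increase of 1.36 (SE 0.12, adjusted p = 3.89e-06). With resveratrol that probe had 0.18 (SE 0.12, adjusted p = 0.365), and its resveratrol arrays all lay above its control arrays. With resveratrol the probes thus differed in the call and not in the direction.

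*Pmaip1*, the gene of Noxa, lay close to background, well above it on 2 of 3 control arrays, 3 of 3 GR24 arrays, 2 of 3 pinosylvin arrays and 3 of 3 resveratrol arrays. Levels were -4.65, -4.93 and -4.79 in the control, -3.87, -4.06 and -3.67 with GR24, -4.62, -4.65 and -4.38 with pinosylvin and -4.58, -3.37 and -4.53 with resveratrol. Resveratrol replicate 2 exceeded the other 2 resveratrol arrays by more than the spread within any other group. The gene entered the test through the GR24 and resveratrol arrays alone, a filter that favours an increase over control or pinosylvin. Its p-values for GR24 against these 2 groups are therefore not given, although it is counted among the genes that rose. The log2 fold change with GR24 was 0.92 (SE 0.27), but 0.23 after normexp background correction. The threshold was missed after normexp, with normexp and quantile normalization, in the deposited table and on slide 1 alone. Without resveratrol replicate 2 the difference of GR24 from resveratrol passed (adjusted p = 0.00247), where the full fit gave 0.419. The difference from pinosylvin missed the threshold in the full fit and passed without resveratrol replicate 1, 2 or 3.

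*Bbc3*, the gene of Puma, a BH3-only protein, was higher with each compound. Levels were 2.43, 2.69 and 2.47 in the control, 2.76, 2.73 and 2.71 with GR24, 2.87, 2.82 and 2.89 with pinosylvin and 2.82, 2.85 and 2.83 with resveratrol. Each treated array lay above each control array, and the control arrays differed more among themselves than those of any treated group. Log2 fold changes were 0.20 (SE 0.071, adjusted p = 0.0337) with GR24, 0.33 (SE 0.071, adjusted p = 0.0109) with pinosylvin and 0.30 (SE 0.071, adjusted p = 0.0158) with resveratrol. The 3 comparisons share the control arrays, so a shift in a control array moves all 3 at once. The GR24 call was lost without control replicate 1 or 3 or any 1 GR24 array, and the resveratrol call without control replicate 1 or resveratrol replicate 2. All 3 were lost with no filter, with only the 6 arrays compared and on slide 1 alone, and adjusted p reached 0.137, 0.100 and 0.0964.

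*Bad*, whose protein is kept inactive by phosphorylation in the presence of survival signals, did not pass the threshold against control with any compound. Levels were 3.60, 3.63 and 3.59 in the control and 3.44, 3.62 and 3.38 with GR24, which overlapped. The log2 fold changes were -0.13 with GR24, -0.079 with pinosylvin and 0.090 with resveratrol, each with a 95% interval that includes 0. The other probe of *Bad* had -0.049, 0.23 and -0.10.

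**Figure D2:**
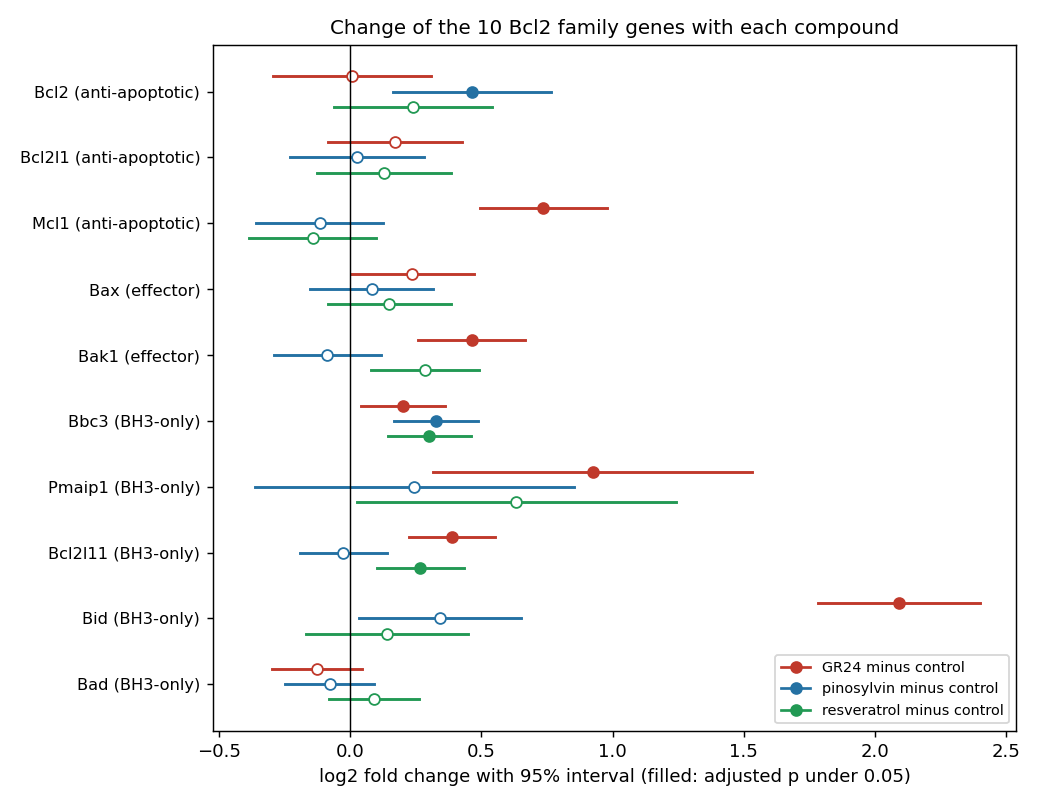
Log2 fold change of the 10 Bcl2 family genes for each compound minus control (x axis, points with 95% intervals, n = 3 arrays per group, filled where the adjusted p was under 0.05). *Bid*, at 2.09, and *Pmaip1*, at 0.92, have the highest values with GR24, and the interval of *Pmaip1* is the widest.

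Against control, 2 of the 10 genes rose with pinosylvin, *Bcl2* and *Bbc3*, and 0 fell, where 16.6% of all tested probes passed in either direction. With resveratrol, *Bbc3* and *Bcl2l11* rose and 0 fell, beside 17.0% of all probes. Both counts of 2 rest on single arrays. The pinosylvin count was 1 when any of the arrays named above for *Bcl2* was left out. The resveratrol count was 0 without resveratrol replicate 2, and 1 without control replicate 1, 2 or 3, pinosylvin replicate 1, or resveratrol replicate 1 or 3. On slide 1 alone, chosen after seeing the data, and with only the 6 arrays compared, both counts were 0. With the replicate block each count was 3, *Bid* being added with pinosylvin and *Bak1* with resveratrol. The median log2 fold change of the family was 0.053 with pinosylvin, beside 0.054 over all probes, and 0.19 with resveratrol, beside 0.010. Single arrays moved the pinosylvin median, to 0.019 without pinosylvin replicate 1, 0.10 without control replicate 2, -0.00095 without pinosylvin replicate 2, 0.025 without control replicate 3 and 0.15 without pinosylvin replicate 3. Over all probes, 4019 differed with pinosylvin and 4123 with resveratrol, and with the replicate block 6947 and 6769.

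The compounds were also set against each other at the matched dose and time, in 3 pairs. GR24 and pinosylvin differed in 5 of the 10 genes, where 56.4% of all probes differed and 29.6% were higher with GR24. *Bid* (1.75), *Mcl1* (0.85), *Bak1* (0.55) and *Bcl2l11* (0.41) were higher with GR24, with adjusted p between 2.24e-06 and 0.000769. *Bcl2* was lower with GR24, with -0.46 (SE 0.14, adjusted p = 0.0143), and missed the threshold without GR24 replicate 2 or pinosylvin replicate 2. *Bax* had 0.16 (SE 0.11, adjusted p = 0.242), and an adjusted p of 0.0241 with the replicate block. The other *Bax* probe passed, with 0.19 (SE 0.073, adjusted p = 0.0466). The 95% intervals of the other 4 genes were -0.11 to 0.40 for *Bcl2l1*, -0.28 to 0.033 for *Bbc3*, 0.072 to 1.29 for *Pmaip1* and -0.22 to 0.12 for *Bad*, whose other probe had -0.54 to -0.027 (adjusted p = 0.0582).

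GR24 and resveratrol differed in 3 of the 10 genes, beside 51.4% of all probes, 27.4% being higher with GR24. *Bid*, with 1.95 (SE 0.14, adjusted p = 1.28e-06), and *Mcl1*, with 0.88 (SE 0.11, adjusted p = 6.94e-05), were higher with GR24. *Bad* was lower, with -0.22 (SE 0.077, adjusted p = 0.0372), a call lost under 14 of the 28 alternatives, among them the percentile over spots (0.210) and the fits without control replicate 1, GR24 replicate 1 or 3, pinosylvin replicate 2 or resveratrol replicate 2 or 3 (adjusted p 0.0121 to 0.407 over all 28). The other *Bad* probe had 0.048 (95% interval -0.21 to 0.31), so the lower value was that of 1 probe. In all probes this pair gave 6662 higher and 5811 lower, and 8707 higher and 4875 lower with the percentile over spots. *Bak1* (0.18, 95% interval -0.026 to 0.38) and *Bcl2l11* (0.12, 95% interval -0.045 to 0.29) missed the threshold here, and each passed it with quantile normalization and with the percentile over spots. The other *Bcl2l11* probe was higher with GR24 than with resveratrol, by 1.18 (SE 0.12, adjusted p = 1.57e-05), with no overlap, so the probes of this gene differed in the call. The 95% intervals of the other 5 genes were -0.53 to 0.069 for *Bcl2*, -0.21 to 0.30 for *Bcl2l1*, -0.15 to 0.32 for *Bax*, -0.26 to 0.058 for *Bbc3* and -0.32 to 0.90 for *Pmaip1*.

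Pinosylvin and resveratrol, the pair that differs by the hydroxyl group, differed in 2 of the 10 genes, beside 14.5% of all probes (3528, or 6323 with the replicate block, 2148 without pinosylvin replicate 2, and 2237 or 2311 without resveratrol replicate 2 or 3). *Bak1* was lower with pinosylvin, with -0.37 (SE 0.092, adjusted p = 0.0228), and so was *Bcl2l11*, with -0.29 (SE 0.075, adjusted p = 0.0258). For both genes the 3 pinosylvin arrays lay below the 3 resveratrol arrays, and the differences were -0.35 and -0.27 within slide 1 and -0.42 and -0.35 within slide 2. Neither call was stable. The count was 1 without pinosylvin replicate 1 and 0 without pinosylvin replicate 2 or 3 or resveratrol replicate 2 or 3, with adjusted p of 0.0116 to 0.0883 for *Bak1* and 0.00779 to 0.173 for *Bcl2l11* over all alternatives. The other *Bcl2l11* probe had -0.089 (SE 0.12, adjusted p = 0.706).

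For the other 8 genes no difference between the stilbenes was called. The 95% intervals of the brightest probes were -0.074 to 0.53 for *Bcl2*, -0.36 to 0.15 for *Bcl2l1* and -0.22 to 0.27 for *Mcl1*. For *Bax* the interval was -0.30 to 0.17, for *Bbc3* -0.13 to 0.18, for *Bid* -0.10 to 0.51 and for *Bad* -0.34 to 0.0021. That of *Pmaip1* was the widest, -0.996 to 0.22. The other *Bad* probe pointed the other way, with 0.33 (95% interval 0.075 to 0.59, adjusted p = 0.0860) and its 3 pinosylvin arrays above its 3 resveratrol arrays. A missed threshold does not show that the compounds act alike on these genes.

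**Figure D3:**
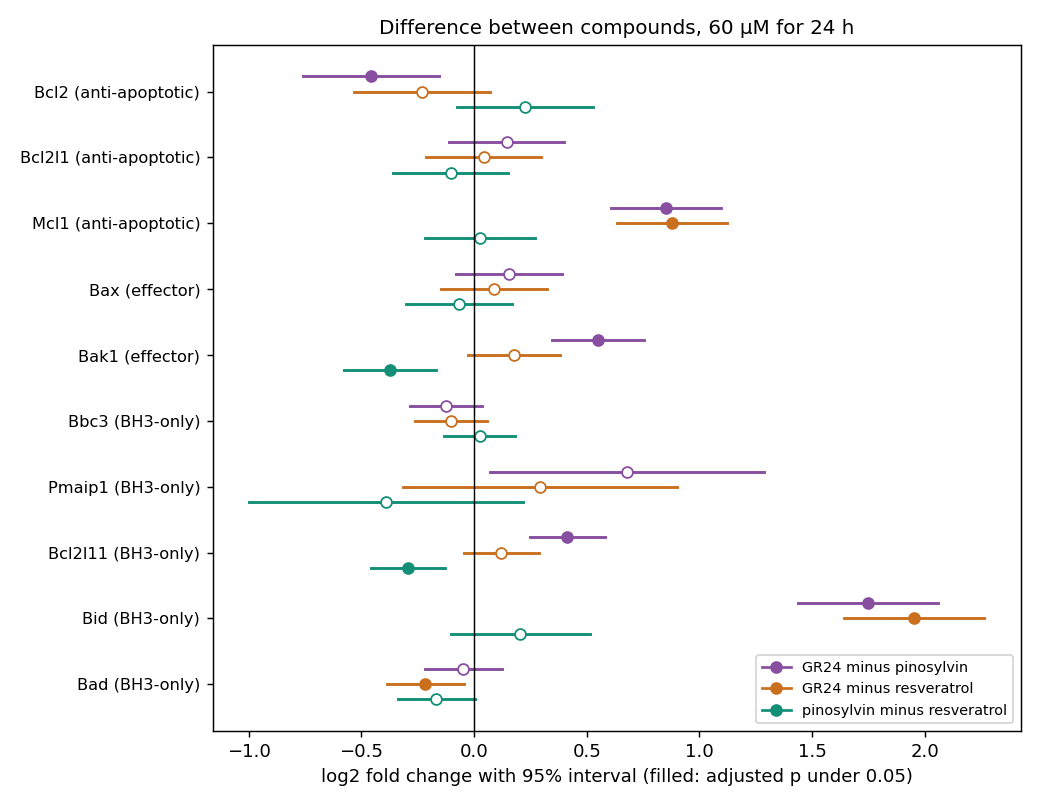
Differences between compounds for the 10 Bcl2 family genes (x axis, log2 fold change with 95% interval, n = 3 arrays per group, filled where the adjusted p was under 0.05). *Bid* lies at 1.75 for GR24 minus pinosylvin and at 1.95 for GR24 minus resveratrol, and the intervals of pinosylvin minus resveratrol exclude 0 for *Bak1* and *Bcl2l11* only.

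Further relatives of the family went both ways with GR24. Of 11 listed, 8 were tested, 3 rose and 3 fell (median -0.073). Beside this and the later counts with GR24 stands the 57.1% of all tested probes that passed. *Bmf*, a BH3-only gene, rose by 1.02 (SE 0.12, adjusted p = 2.74e-05). *Bok*, a relative of the effectors, fell with GR24, with -0.94 (SE 0.094, adjusted p = 1.05e-05), and also with pinosylvin (-0.99) and resveratrol (-0.60). *Bik*, another BH3-only gene, was well above background on 3 of 3 control arrays and on 0 of 3 arrays with GR24 or pinosylvin. It is counted among the 3 that fell, but it entered the test through the control arrays alone, a filter that favours a decrease from control, so its p-value is not given. In the main processing, and with no test of the bound, its signal was at least 2.47-fold lower when each GR24 array is given the larger of what the probe read and the dimmest reading that counted as well above background there. With normexp and quantile normalization the log2 fold change of *Bik* was -0.66, a smaller decrease than this bound. *Hrk* had -0.96 (SE 0.34, adjusted p = 0.0315) with GR24 and lost the threshold without control replicate 1 or GR24 replicate 1 or 2, with the percentile over spots (0.0594), with no filter and with 6 arrays. It was also lost with normexp and quantile normalization (-0.33, adjusted p = 0.0919) and in the deposited table (-0.49, adjusted p = 0.0999).

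Around the mitochondria, *Casp8*, the initiator that cuts Bid, rose with GR24 by 0.91 (SE 0.093, adjusted p = 1.26e-05), and *Casp4*, an inflammatory caspase, by 0.71 (SE 0.084, adjusted p = 3.76e-05). *Casp4* was higher with pinosylvin (0.81) and resveratrol (0.94) too. Of 9 genes of mitochondrial release and the apoptosome, 3 rose with GR24, *Aifm1* (0.75), *Diablo* (0.54) and *Endog* (0.42), and *Cycs*, the gene of cytochrome c, fell (-0.52), 4 of 9 where 57.1% of all probes passed. With pinosylvin or resveratrol 0 of these 9 passed in the limma fit, beside 16.6% and 17.0% of all probes, and 0 and 0 had an unadjusted p under 0.05.

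Among 5 inhibitors of apoptosis, 3 rose with GR24 and 1 fell. *Birc3* had 0.89 (SE 0.13, adjusted p = 0.000221) and *Birc2* 0.33 (SE 0.081, adjusted p = 0.00532). *Birc6* had 0.33 (SE 0.13, adjusted p = 0.0477) and missed the threshold under 17 of 28 alternatives, among them the fits without any 1 array other than control replicate 3 or pinosylvin replicate 3 (adjusted p up to 0.173). *Birc5*, the gene of survivin, which also acts in cell division, fell, with -2.70 (SE 0.13, adjusted p = 4.94e-08), and it fell with pinosylvin (-1.81) and resveratrol (-0.96). Of 7 tested genes of the death receptor pathway, the receptor gene *Tnfrsf1a* (1.02) and the kinase gene *Ripk1* (0.56) rose with GR24, and *Cflar*, an inhibitor of caspase 8, fell (-0.79). With the percentile over spots 5 of these 7 passed. *Fadd*, an adaptor of the receptors, had -0.57 (SE 0.10, adjusted p = 0.00309) with pinosylvin and missed the threshold after normexp and in the deposited table.

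Regulators of the family were listed as well. *Mdm2* had 0.65 (SE 0.10, adjusted p = 0.000254) and *Plk2* -0.62 (SE 0.067, adjusted p = 1.98e-05) with GR24. *Gadd45a* rose with pinosylvin, by 1.02 (SE 0.14, adjusted p = 0.000783), and with resveratrol, by 0.63 (SE 0.14, adjusted p = 0.0124), the latter lost without resveratrol replicate 1 and with only the 6 arrays compared. With GR24 it had 0.11, not past the threshold. Of 8 other transcription factors known to act on BH3-only genes, 5 rose and 2 fell with GR24, where 57.1% of all probes passed. *Myc* (1.16) and *Trib3* (0.93) rose, and *Jun* (-0.70) and *E2f1* (-0.66) fell. The 3 tested genes whose proteins act on the stability or location of Mcl1 and Bim were all lower with GR24, *Fbxw7* (-1.24), *Usp9x* (-0.80) and *Dynll1* (-0.17), the last of these lost under 17 of 28 alternatives, among them the percentile over spots and the fits without any 1 array other than control replicate 3 (adjusted p up to 0.562).

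Markers of the cells moved in the same arrays. Of 17 myotube markers, 17 were well above background on all 12 arrays, and 14 fell and 0 rose with GR24 (median -1.51, -1.55 within slide 1 and -1.42 within slide 2). Their summed signal, relative to the 75th percentile of the array, was 1799, 2021 and 1772 in the control, 908, 918 and 868 with GR24, 1960, 2090 and 1970 with pinosylvin and 1581, 1684 and 1560 with resveratrol. *Myl11* had the brightest probe. *Myog* (-5.83), *Acta1* (-3.88), *Actc1* (-2.90) and *Ckm* (-2.58) had the largest decreases with GR24. With resveratrol 8 of the 17 fell, where 17.0% of all probes passed, and 4 without control replicate 2 or resveratrol replicate 3, and 5 without control replicate 1, pinosylvin replicate 1 or 2 or resveratrol replicate 1. With pinosylvin 4 rose and 1 fell, where 16.6% of all probes passed, and 10 passed with the replicate block, where 6947 of 24279 probes did.

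All 4 tested markers of cycling cells fell with each compound, where 57.1%, 16.6% and 17.0% of all probes passed with GR24, pinosylvin and resveratrol, and their summed signal was 73.0, 68.8 and 67.0 in the control, 18.5, 19.1 and 17.5 with GR24, 29.0, 29.3 and 27.9 with pinosylvin and 41.1, 44.0 and 39.6 with resveratrol. *Cdk1* had the brightest probe, and with GR24 *Ccnb1* had -2.86, *Mki67* -2.83, *Cdk1* -2.81 and *Pcna* -0.51. Of 5 tested markers of undifferentiated myoblasts, *Id2* (1.22) and *Hes1* (0.65) rose and *Myf5* (-0.88) fell with GR24. Of other cell types, *Ptprc* of leukocytes and *Adipoq* of adipocytes were well above background on 0 of 12 arrays. The leukocyte and macrophage gene *Cd68* rose with GR24 (2.67), and *Cdh5* of endothelium had -0.44 (adjusted p = 0.151, and 0.000201 with the replicate block). *Pecam1*, also of endothelium, was not tested, being well above background on 0 of 3 control, 2 of 3 GR24, 2 of 3 pinosylvin and 1 of 3 resveratrol arrays. The part of these markers in the values of the Bcl2 family was not tested.

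Promoters are shown for *Bid*, *Mcl1* and *Bcl2l11*, 3 of the 6 genes that rose with GR24. Of the 10 genes, 8 had an entry in the RefSeq promoter table of assembly GRCr8, and *Bax* and *Bbc3* are named only. The 250 bases before the start of each gene are printed 5′ to 3′, at chr4:155808320-155808569, minus strand for *Bid*, chr2:185907918-185908167, plus strand for *Mcl1* and chr3:135819792-135820041, plus strand for *Bcl2l11*. Capitals mark matches on either strand to the antioxidant response element core TGACNNNGC, the E-box CACGTG, the C/EBP-ATF element TGATGNAAT, the forkhead motif GTAAACA, the cAMP response element TGACGTCA and the GC box GGGCGG, motifs chosen after seeing the data.
Bid: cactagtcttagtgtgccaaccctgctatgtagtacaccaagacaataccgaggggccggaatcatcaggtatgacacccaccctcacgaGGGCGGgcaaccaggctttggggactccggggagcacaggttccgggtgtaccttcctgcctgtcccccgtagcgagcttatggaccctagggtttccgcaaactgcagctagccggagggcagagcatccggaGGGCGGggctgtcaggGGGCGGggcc
Mcl1: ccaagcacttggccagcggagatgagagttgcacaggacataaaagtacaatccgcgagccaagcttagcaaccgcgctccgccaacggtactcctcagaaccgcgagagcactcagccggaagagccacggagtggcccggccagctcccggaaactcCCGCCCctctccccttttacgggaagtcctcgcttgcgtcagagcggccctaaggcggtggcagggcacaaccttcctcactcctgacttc
Bcl2l11: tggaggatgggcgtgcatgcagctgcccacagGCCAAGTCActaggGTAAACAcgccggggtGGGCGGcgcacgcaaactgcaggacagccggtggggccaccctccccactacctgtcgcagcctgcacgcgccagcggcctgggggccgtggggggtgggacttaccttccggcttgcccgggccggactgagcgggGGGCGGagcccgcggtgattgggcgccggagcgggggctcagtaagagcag

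The *Bid* window held 3 GC boxes and the *Mcl1* window 1, on the other strand. The *Bcl2l11* window held 2 GC boxes, 1 forkhead motif and 1 antioxidant response element core. Of the 11 promoters of the family, 5 held a GC box, 2 the forkhead motif and 2 the antioxidant response element core. *Bad* also held the forkhead motif and *Bcl2l1* the antioxidant response element core, and neither gene was called with GR24 against control. Among all 33469 promoters of the table, 30.5% held a GC box, 3.21% the forkhead motif and 10.1% the antioxidant response element core in the same 250 bases. The shares were 5.59% for the E-box, 0.944% for the C/EBP-ATF element and 1.59% for the cAMP response element, with no match in these 3 windows. A p53 half-site was also looked for, and 6.64% of all promoters and 0 of the 11 promoters of the family held it. These 11 belong to 8 genes, several being windows of *Bcl2l1*, and *Bax* and *Bbc3* are missing. With so low a share over all promoters, 0 among 11 does not set the family apart. A match is a description of the letters, and the absence of one says only that they are not in this window.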

How the data were processed

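RNA of 12 L6 myotube cultures, 3 for each of 4 groups, was measured on Agilent arrays of 1 colour. The values used are the processed signal, an intensity from which, per the file headers, the scanner software Agilent Feature Extraction 12.0.0.7 had subtracted the background before the authors deposited it, with no normalization between arrays. The median spot and local background intensities and other marks per spot (outlier, saturation, well above background) were also deposited. The authors deposited a series table of log2 values as well, for 25848 probes, whose normalization is not given in the sources used here. It served as an alternative.

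Log2 of the processed signal was averaged over the spots of a probe, without control spots and outlier spots, and the 75th percentile of each array over probes was subtracted. A probe counted as well above background on an array if at least 50% of its spots did, and was tested if this held for each of the 3 arrays in 1 group or more (24279 probes). A first fit had taken the percentile over spots and asked for more than 50% of the spots. Both were changed after its counts had been seen, because they differed from those of an earlier processing of these data, and the percentile over spots is kept as an alternative. A mean per group was fitted to all 12 arrays with limma 3.58.1 in R 4.3.3 (eBayes, Benjamini-Hochberg over all tested probes, threshold 0.05), checked on simulated data. There, with 200 of 24263 probes changed, it recovered 36% of log2 changes of 0.5 and 73.5% of changes of 1. Many changes of the smaller size were thus missed in that check, where a far smaller share of probes changed than passed with GR24. Labels do not say whether replicates were separate cultures, while the methods name independent experiments. Probes were named through RefSeq accessions in a gene table of assembly GRCr8, which named 21109 of 45598 probes (46.3%).

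The 10 genes were given by name, and all are reported. Of each further list up to 4 genes past the threshold against control with the largest absolute log2 fold change are named, or all where 4 or fewer were tested, and for each of the 10 genes the gene of highest correlation over the 12 arrays. Some listed genes that meet this rule, and the counts of their lists, are not reported here. Members and lists were chosen with earlier results of these data known. Arrays with the same replicate number deviated together from their group means (r from 0.191 to 0.744 in 18 pairs), so the numbers were taken to pair the arrays. The main fit has no block and leaves this pairing out of its errors, and the replicate block is an alternative. Replicates 1 and 2, which share slide 1, correlated with each other (0.222 to 0.475) about as much as arrays of the same number on that slide (0.191 to 0.470), so number and slide cannot be told apart here. With the replicate block 16164 probes differed between GR24 and control, against 13854 without. Alternatives were other background corrections, normalizations, filters, blocks, variance models and left-out arrays, and 3 were added after seeing the data (the percentile over spots of the first fit, centring on the median and slide 1 alone).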

Additional observations from a re-analysis of the deposited data

How the results depend on the processing

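Directions past the threshold were stable, and the side of the threshold was not. Of 1674 values of the 10 genes under 28 alternatives, 1520 kept their direction and their side of the threshold, 76 lost the threshold, 38 gained it, 40 changed sign without passing it in either setting, and 0 changed sign past it. The counts for GR24 in the family stayed within 1.5 times under each alternative. The count of 2 genes with pinosylvin was 1 with quantile normalization and in the deposited table, and 0 with no filter on dim probes, with only the 6 arrays compared and on slide 1 alone, the last chosen after seeing the data. It was 3 with the replicate block or the slide as a block, and 1 to 2 with each array left out, and those of GR24 were 5 to 7 against control, 4 to 6 against pinosylvin and 2 to 3 against resveratrol. The count of 2 with resveratrol was 1 with the mean over the probes of a gene and with centring on the median of tested probes (chosen after seeing the data), 0 with no filter, 6 arrays or slide 1 alone, 3 with the percentile over probes above background on all 12 arrays, the replicate block, the slide as a block or a trend and robust variances, and 0 to 2 with arrays left out. Between pinosylvin and resveratrol the count of 2 was 1 in the deposited table and with the mean over probes, 0 with no filter, 6 arrays or slide 1 alone, and 0 to 2 with arrays left out. Over all probes, pinosylvin gave 4019, but 2409 with no filter, 2479 with 6 arrays, 6947 with the replicate block and 7074 with the slide as a block, and 2808 to 4092 with arrays left out. Resveratrol gave 4123, but 2680, 6769 and 6869 with no filter and with either block, and 2872 to 4310 with arrays left out. The pair of stilbenes gave 3528, but 1975, 6323 and 6443, and 2148 to 3683 with arrays left out. With no filter more probes were tested, and with 6 arrays or 1 slide fewer arrays entered the fit; the cause of the other shifts was not tested. Beyond the calls given with the genes, the replicate block changed no call of the 10 genes.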

Other observations

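Genes whose levels followed those of the Bcl2 family most closely were looked up by Pearson's r over the 12 arrays among 10736 named genes, as a description with no test, since the 4 groups set most of the variation. Of the 6 genes that rose with GR24, the closest were *Kti12* (0.995) for *Bid*, *Scyl3* (0.942) for *Pmaip1*, *Dnajc2* (0.993) for *Mcl1*, *Ahcy* (0.985) for *Bak1*, *Fnbp4* (0.983) for *Bcl2l11* and *Pdgfra* (0.940) for *Bbc3*. For *Bax* it was *Cstb* (0.959) and for *Bad* *Szrd1* (0.939). For *Bcl2* it was *Ndufaf8* (0.920). *Bcl2l1* had the lowest of these values, with *Apbb3* (0.736). Within the family, r over the 12 arrays was 0.934 between *Mcl1* and *Bid* and 0.943 between *Bak1* and *Bcl2l11*, the pair of genes that were lower with pinosylvin than with resveratrol. These were the highest values among the pairs of the family. The lowest was -0.559, between *Bid* and *Bad*.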
